A study of Homo sapiens with 6 samples.

Results

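The genes of glycerophospholipid and triglyceride metabolism described here are 50 named genes: phospholipases, acyltransferases, lipins, neutral lipases and the enzymes that build phosphatidylcholine, phosphatidylethanolamine, phosphatidylserine and cardiolipin. They were taken by symbol from a table of 40205 genes, in which all 50 were found, with AGPAT6 and AGPAT9 standing under these older symbols of GPAT4 and GPAT3. RNA-seq was performed on 3 control samples (Control-1 to Control-3) of untreated cells and 3 CLs-treated samples (CLs-1 to CLs-3) exposed to CLs for 24 h. The dose was 120 μM in the labels, while other passages of the study's text give it in μg/ml, so the unit is uncertain. All 6 samples carry the label HepG2, a human liver cancer cell line. CLs are cationic liposomes, lipid vesicles with a positive surface charge, made here from DOTAP, cholesterol and a phospholipid linked to polyethylene glycol. The comparison asks which transcripts of lipid synthesis and breakdown differed after exposure to these vesicles. The labels do not say whether the samples of a group came from separate cultures, so the p-values measure the spread between these samples, which may be technical.

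Glycerophospholipids and triglycerides are built along a shared route. Acyl chains are added to glycerol-3-phosphate to give lysophosphatidic acid and then phosphatidic acid, which lipins convert to diacylglycerol or CDS enzymes convert to CDP-diacylglycerol. Diacylglycerol is acylated to triglyceride by DGAT enzymes or joined to activated choline or ethanolamine in the Kennedy pathway, and lipases and phospholipases run the route backwards. Hepatocytes use the pathway to make membranes, lipoproteins and stored fat.

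Between 11418527 and 13998946 reads were counted per sample, with CLs-1 the deepest, and values are given as CPM, the reads of a gene scaled to the same total in every sample with TMM factors. A count of 3 corresponded to 0.208 to 0.263 CPM. The transcripts went against the HepG2 label: of 14 hepatocyte and HepG2 markers, 10 had at most 3 counts in every sample other than CLs-1, and APOH and TTR were at 0 in all samples. ALB was at 0 in every sample other than CLs-1, where it had 8 counts, and AFP had at most 1 count. The summed level of this list was 0.434 to 2.16 CPM in control samples and 0.259 to 10.9 CPM in CLs-treated samples. The samples are therefore called cells labelled HepG2. CLs-1 stood apart, with more reads of erythroid markers (33.0 CPM summed, against at most 0.347 CPM elsewhere), of steroidogenic markers (32.3 CPM, against at most 2.76 CPM) and of COL1A2 (1044 counts, against at most 2). COL1A2 came from a list of 7 fibroblast and stromal markers, which summed to 730 to 1098 CPM in control and 808 to 954 CPM in CLs-treated samples. Of that list COL3A1 (7456 to 11358 counts), COL1A1 (764 to 2472) and PDGFRB (167 to 275) were read in every sample. DCN, LUM and THY1 had at most 5 counts outside CLs-1. The summed level of 6 epithelial markers, nearly all of it from KRT7, KRT8 and KRT18, was 5770 to 6377 CPM in control and 2629 to 3491 CPM in CLs-treated samples. EPCAM had at most 7 counts and CDH1 at most 9 in any sample. The part of these marker differences in the values of the lipid genes was not tested, and results are given with and without CLs-1 where it mattered.

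None of the genes that could be tested passed the criteria for a changed gene, an adjusted p-value under 0.05 with a fold change above 1.5 or below 0.67. PLA2G3 and LIPE had too few reads to be tested, and 0 of the other 48 were called by edgeR's quasi-likelihood test (lowest adjusted p = 0.327, for PCYT2) or by DESeq2 (lowest adjusted p = 0.0906, for MGLL). Calls were rare over the whole table too, at 0.0864% of the 15047 genes tested in either direction. At an unadjusted p under 0.05, edgeR gave 9 of the 48 genes (18.8%, beside 5.81% of all genes tested). DESeq2, whose fit also kept PLA2G3 and LIPE, gave 10 of the 50, and no share of all genes is given for it. Of the 9, 3 were higher in CLs-treated samples (6.25%, beside 2.19% of all genes tested) and 6 were lower (12.5%, beside 3.62% of all genes).

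The direction of small differences was uneven. The values of the groups did not overlap for 15 genes, of which 3 were higher in all CLs-treated samples (6.25%, beside 5.34% of all genes tested) and 12 were lower (25%, beside 6.18% of all genes). Without CLs-1 the groups were apart for 7 genes in the higher direction (14.6%, beside 13.6% of all genes) and 16 in the lower direction (33.3%, beside 13.7%). The log2 fold change was below 0 for 29 of the 48 genes (60.4%, beside 47.95% of all genes), with a median of -0.05 beside 0.01 over all genes tested. The differences were small: 44 of the 48 genes had a log2 fold change between -0.5 and 0.5. In bulk RNA a smaller number of expressing cells and less transcript per cell cannot be told apart.

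**Figure D1:**
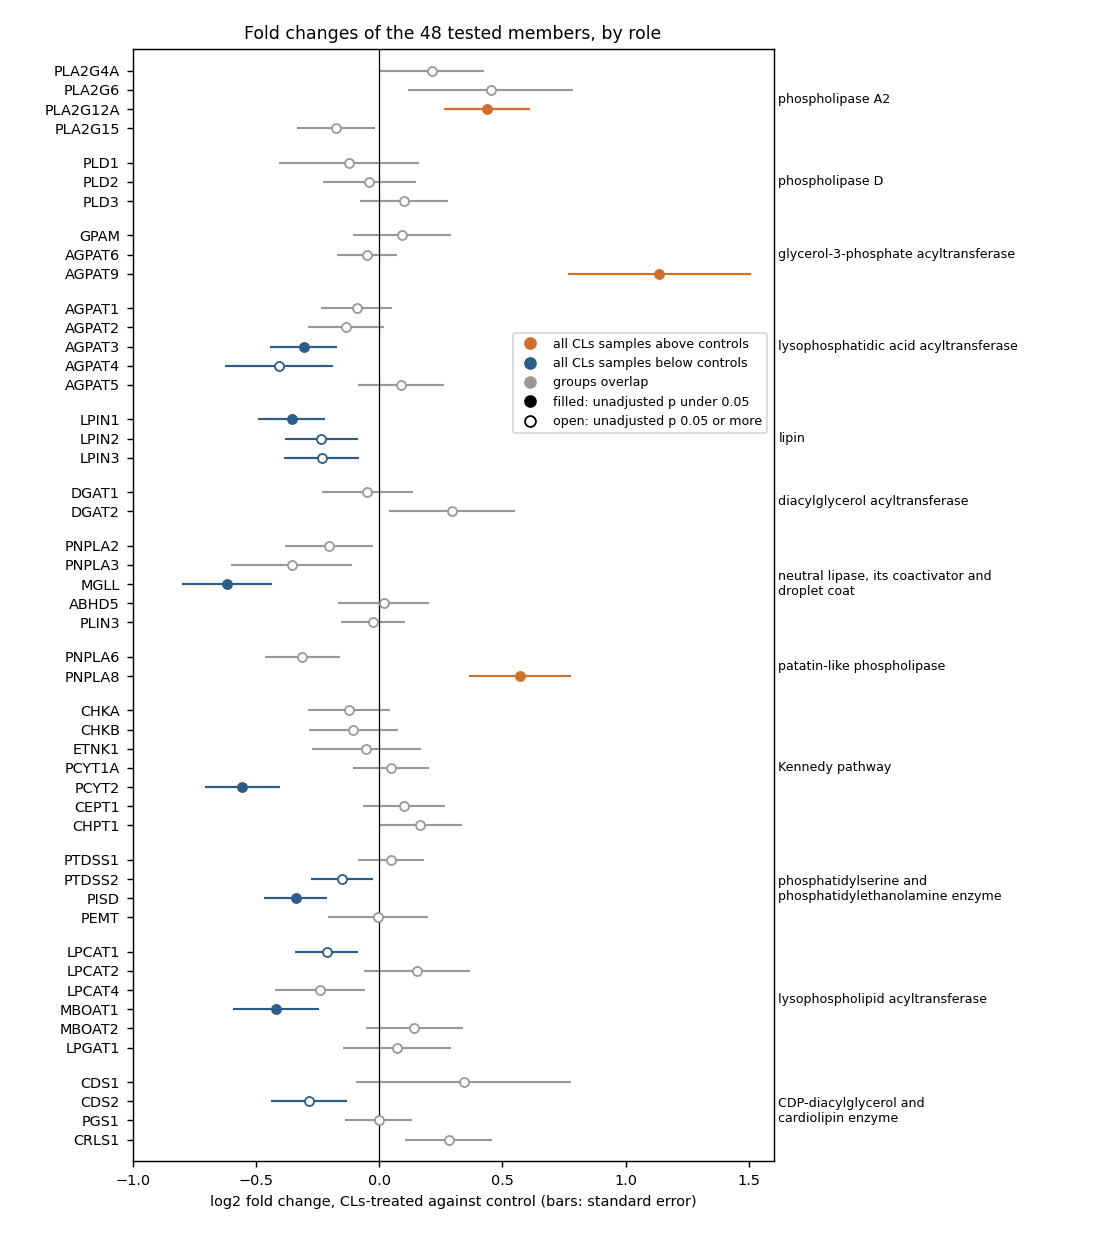
Log2 fold change of CLs-treated against control cells (x axis, bars are standard errors) for the 48 genes tested, grouped by role; colour marks genes whose samples did not overlap between groups and filled points an unadjusted p under 0.05. The 3 lipins, PCYT2, PISD and MGLL lie below 0, and AGPAT9, at 1.14, lies farthest above it.

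Sequence upstream of the transcription start is shown for 3 genes whose groups did not overlap, none of them called. Only windows with a CCAAT box or an E-box were taken. Some other genes with groups apart, among them AGPAT9 and LPIN1, had windows with neither and are not shown. AGPAT3, AGPAT4, CDS2 and PNPLA8 had a window with a CCAAT box, and LPIN2 and PTDSS2 had a window with an E-box. These are not shown either. PNPLA8 was higher after CLs, while LPIN2 and PTDSS2 were lower, so the windows shown do not tie a motif to a direction. PCYT2 and PISD make phosphatidylethanolamine by separate routes and were lower after CLs, and PLA2G12A was among the 3 genes that were higher. PCYT2 and PISD each have 2 windows in RefSeq, and the one with a CCAAT box is shown. The other window of each gene held no CCAAT box and no E-box. Each window holds the 250 bases before a RefSeq start on GRCh38.p14, read 5′ to 3′ on the gene's strand. The PCYT2 window lies at chr17:81911400-81911649 on the minus strand, the PISD window at chr22:31662216-31662465 on the minus strand and the PLA2G12A window at chr4:109730071-109730320 on the minus strand. Capitals mark a CCAAT box, printed as ATTGG because it lies on the opposite strand, or an E-box (CACGTG).
PCYT2: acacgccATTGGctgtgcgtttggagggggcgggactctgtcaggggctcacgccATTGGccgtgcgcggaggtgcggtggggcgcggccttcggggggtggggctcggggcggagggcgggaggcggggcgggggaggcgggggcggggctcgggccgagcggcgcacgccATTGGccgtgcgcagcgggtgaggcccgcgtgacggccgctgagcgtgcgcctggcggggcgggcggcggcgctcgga
PISD: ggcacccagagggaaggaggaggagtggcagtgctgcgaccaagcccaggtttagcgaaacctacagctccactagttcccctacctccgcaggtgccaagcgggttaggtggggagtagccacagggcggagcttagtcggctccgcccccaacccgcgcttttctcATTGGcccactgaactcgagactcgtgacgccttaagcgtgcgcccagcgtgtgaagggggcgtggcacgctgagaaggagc
PLA2G12A: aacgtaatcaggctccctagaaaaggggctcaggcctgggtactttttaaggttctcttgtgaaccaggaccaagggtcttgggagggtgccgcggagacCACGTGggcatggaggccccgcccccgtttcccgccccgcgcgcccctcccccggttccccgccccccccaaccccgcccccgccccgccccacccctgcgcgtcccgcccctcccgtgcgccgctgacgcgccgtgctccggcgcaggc

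The PCYT2 window shown held 3 CCAAT boxes, starting at -243, -195 and -78 from the start site, and the PISD window shown held 1, at -82. The PLA2G12A window held an E-box at -150. RefSeq promoters, from 250 bases before to 50 after a start, matched 38 of the 50 genes with 64 windows. Both strands were searched, each motif on its own so that matches of different motifs may overlap. CCAAT was present in 17 of the 64 windows (26.6%, beside 34.6% of 35116 windows of all genes) and CACGTG in 6 (9.38%, beside 7.26%). The sterol response element written TCACNCCAC was found in 1 window, of PNPLA2 (1.56%, beside 1.13%). The GC box GGGCGG was present in 47 (73.4%, beside 44.95%) and the nuclear receptor half-site AGGTCA in 3 (4.69%, beside 13.8%). A match describes these letters and is not a binding site. The counts do not say which start was used in these cells. AGPAT5, AGPAT6, CHKA, DGAT1, DGAT2, LPCAT2, LPIN3, MBOAT1, MGLL, PLA2G3, PNPLA3 and PTDSS1 had no matched window.

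Before treatment the genes covered a wide range of levels. Divided by exon length, so that genes can be compared, the highest mean control levels were those of PLIN3, a coat protein of lipid droplets, at 73.9 CPM per kb, and PLD3, a lysosomal phospholipase D family member, at 53.5 CPM per kb. They were followed by PEMT, which methylates phosphatidylethanolamine to phosphatidylcholine in liver, at 44.6 CPM per kb, and PTDSS1, which makes phosphatidylserine from phosphatidylcholine, at 42.6 CPM per kb. The samples of PEMT and PTDSS1 overlapped, so the order of this pair is not set. MGLL and LPCAT1, at 34.6 and 34.3 CPM per kb, also overlapped. At the other end AGPAT4 had 0.795 CPM per kb, AGPAT9 had 0.642, PLA2G3 had 0.267, CDS1 had 0.161 and LIPE had 0.0150. In CLs-treated samples PLIN3 and PLD3 were again at the top, at 72.7 and 57.4 CPM per kb, and MGLL was at 22.6 CPM per kb.

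**Figure D2:**
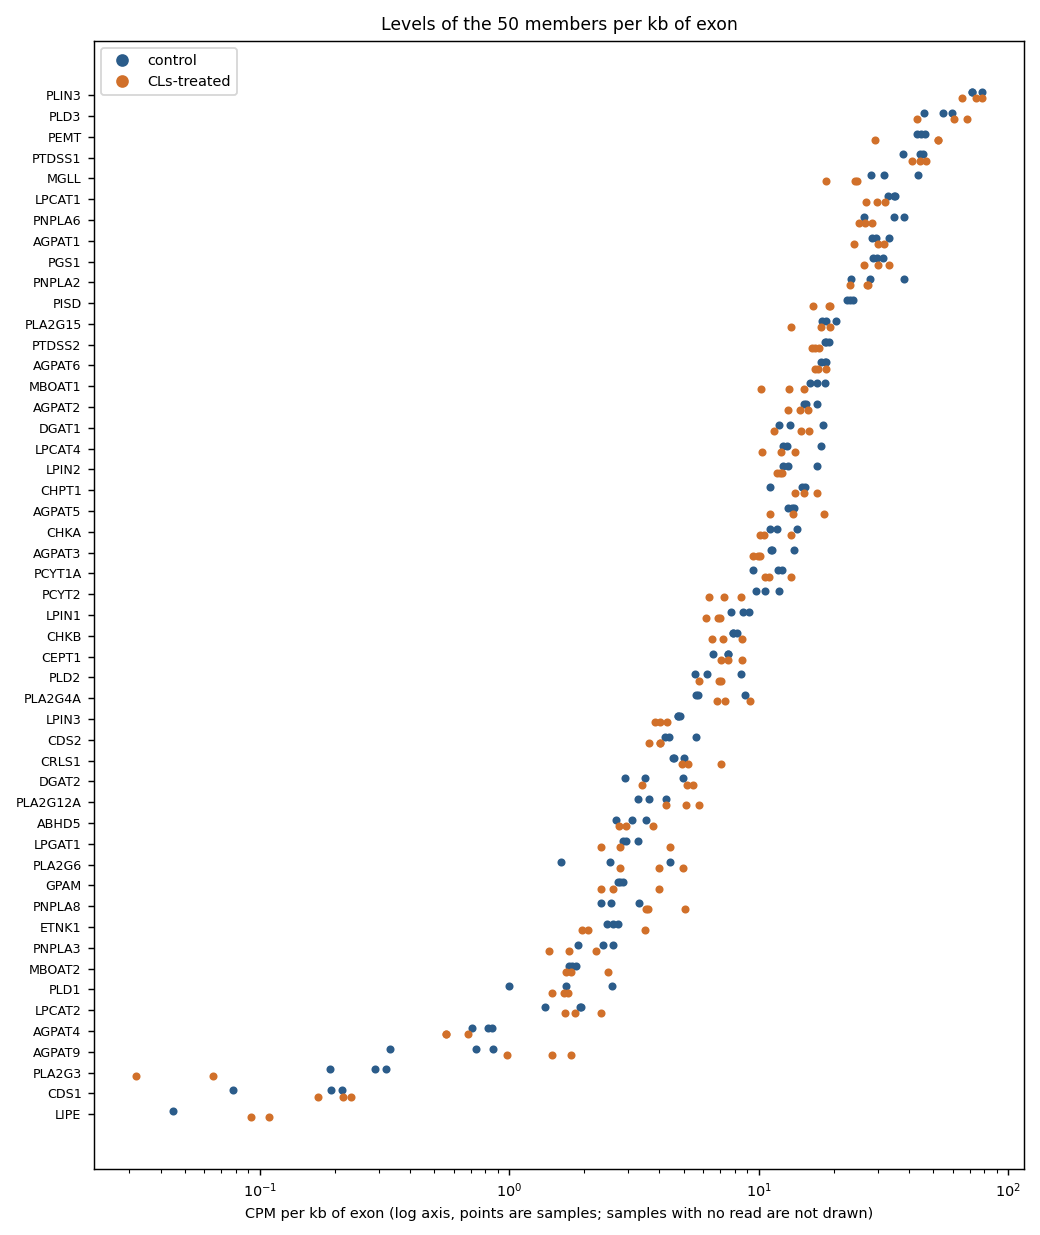
CPM per kb of exon (x axis, log scale) of the 50 genes in each control and CLs-treated sample, ordered by the mean of the control samples; a sample with no read is not drawn. PLIN3 and PLD3 head the order in both groups, and AGPAT9 and PLA2G3, near its lower end, have groups that lie apart.

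Glycerol-3-phosphate acyltransferases carry out the entry step, and AGPAT9 had the largest fold change of the 48 genes tested. AGPAT9 (GPAT3), an enzyme of the endoplasmic reticulum, had 28, 24 and 11 counts in the control samples and 72, 32 and 48 counts in the CLs-treated samples, or 2.43, 2.07 and 0.943 CPM against 4.99, 2.77 and 4.21 CPM. All CLs-treated samples were above all control samples, although CLs-2 lay close to Control-1. Its log2 fold change was 1.14 (SE 0.37) with an adjusted p of 0.513 by edgeR. The value was 0.94 without CLs-1 and 0.83 without Control-3. AGPAT6 (GPAT4), the related enzyme of the same compartment, had a mean of 115 ± 2.88 CPM (SD, n = 3) in control and 111 ± 5.47 CPM (SD, n = 3) in CLs-treated samples. GPAM, the mitochondrial enzyme, had 26.1, 26.5 and 27.1 CPM in control samples and 37.9, 22.2 and 24.7 CPM in CLs-treated samples. CLs-1 was above and the other two below every control sample of GPAM, and its log2 fold change turned from 0.09 to -0.18 without CLs-1.

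The next acyl chain is added by lysophosphatidic acid acyltransferases, of which 4 of 5 had a log2 fold change below 0. AGPAT3 had 79.1, 78.8 and 97.4 CPM in control samples and 69.4, 66.3 and 70.9 CPM in CLs-treated samples. Every CLs-treated sample was below every control sample, with Control-3 well above the other control samples, and the log2 fold change was -0.31 (SE 0.14, adjusted p = 0.840 by edgeR) and -0.20 without Control-3. AGPAT4, a weakly expressed member, had 6.86, 7.08 and 5.92 CPM in control samples and 4.64, 5.71 and 4.64 CPM in CLs-treated samples. The gap between CLs-2 and Control-3 was small, and the log2 fold change was -0.41 (SE 0.22, adjusted p = 0.907 by edgeR). The groups of AGPAT1, AGPAT2 and AGPAT5 overlapped, with log2 fold changes between -0.13 and 0.09. The sign for AGPAT1 and AGPAT5 changed without CLs-1.

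All 3 lipins, the phosphatases that turn phosphatidic acid into diacylglycerol, had values in the CLs-treated group that lay entirely below those of the control group. LPIN1 had 47.1, 55.8 and 52.7 CPM in control samples and 41.8, 42.5 and 37.4 CPM in CLs-treated samples. LPIN2 had 77.9, 82.0 and 107 CPM in control samples and 73.7, 75.9 and 77.3 CPM in CLs-treated samples. LPIN3 had 20.7, 21.2 and 20.7 CPM in control samples and 16.8, 18.8 and 17.6 CPM in CLs-treated samples. The gap was clear for LPIN1 and LPIN3, while for LPIN2 CLs-3 lay just under Control-1 and the log2 fold change was -0.08 without Control-3. The log2 fold changes were -0.35 (SE 0.14) for LPIN1, -0.23 (SE 0.15) for LPIN2 and -0.23 (SE 0.15) for LPIN3. The adjusted p-values by edgeR were 0.708, 0.951 and 0.954, and LPIN1 alone had an unadjusted p under 0.05. Without CLs-1 the values were -0.38, -0.22 and -0.20. The DGAT enzymes, which complete triglyceride, overlapped between groups, with log2 fold changes of -0.05 for DGAT1 and 0.30 (SE 0.25) for DGAT2.

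**Figure D3:**
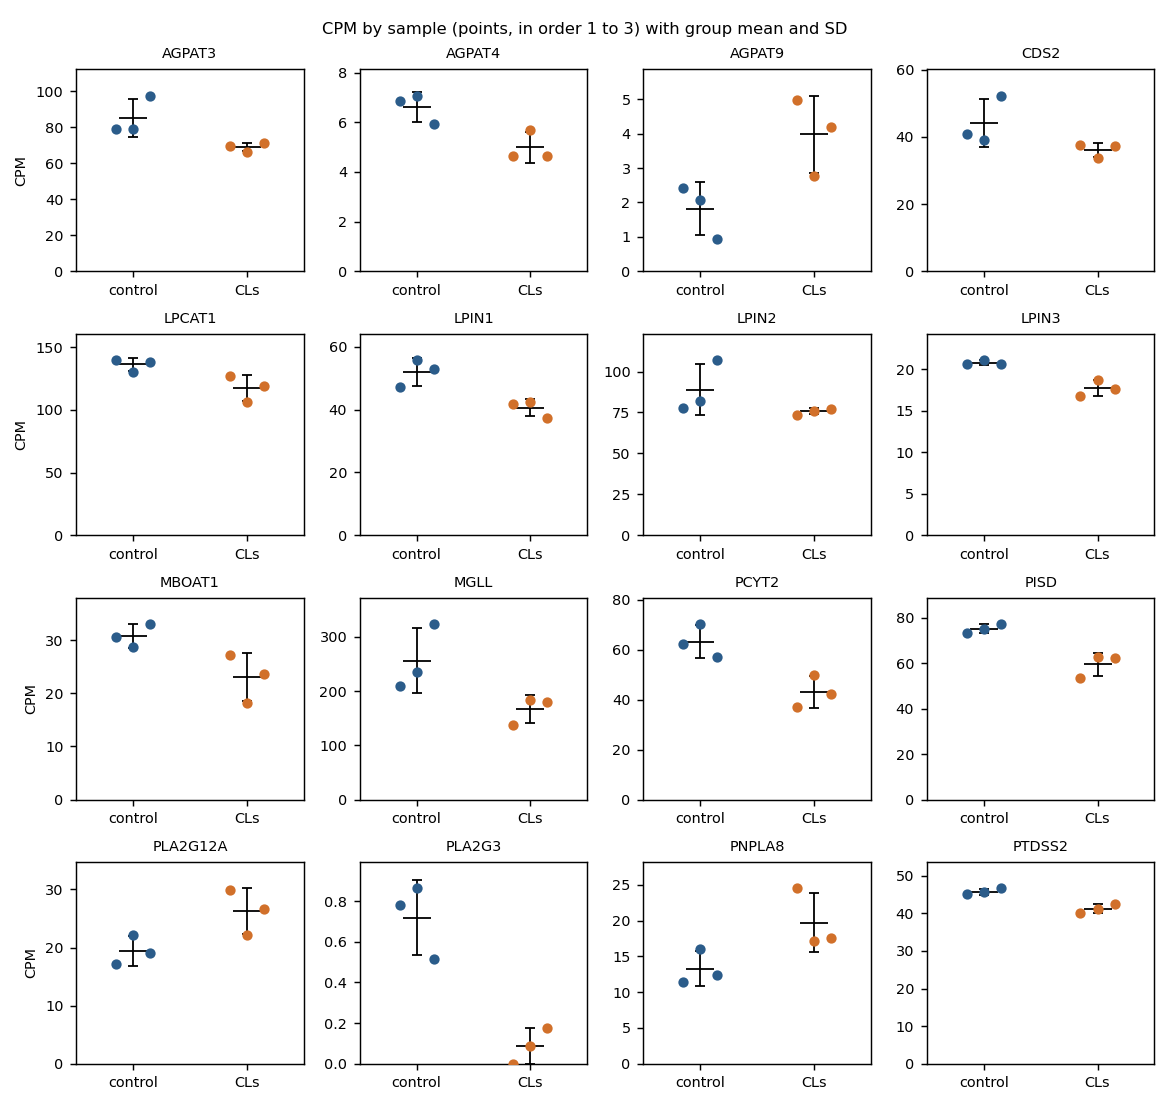
CPM (y axis from 0) in each control and CLs-treated sample for the 15 genes whose groups did not overlap and for PLA2G3, whose reads were too few for the test; points are samples and black bars the group mean and SD (n = 3). AGPAT9, PLA2G12A and PNPLA8 were higher in the CLs-treated samples and the others were lower.

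Among the lipases that take triglyceride apart was the gene with the most negative log2 fold change of the 48. MGLL, monoacylglycerol lipase, which releases the last fatty acid from glycerol, had 209, 236 and 323 CPM in control samples and 138, 184 and 180 CPM in CLs-treated samples. CLs-1 was the lowest and Control-3 the highest, and the groups did not overlap. The log2 fold change was -0.62 (SE 0.18), or a fold of 0.653, with an adjusted p of 0.392 by edgeR and 0.0906 by DESeq2. For MGLL the log2 fold change was -0.50 without CLs-1 and -0.41 without Control-3. PNPLA2, adipose triglyceride lipase, which takes off the first chain, had 56.9, 67.9 and 92.6 CPM in control samples and 56.2, 66.1 and 66.4 CPM in CLs-treated samples, with overlapping groups. ABHD5, the coactivator of PNPLA2, and PLIN3 had log2 fold changes of 0.02 and -0.02. PNPLA3, a lipid droplet protein of the same family as PNPLA2, had overlapping groups with a log2 fold change of -0.35 (SE 0.25). LIPE, hormone-sensitive lipase, had 0, 0 and 2 counts in control samples and 6, 0 and 4 counts in CLs-treated samples, which is too few for a comparison.

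The phospholipases A2, which cut the middle chain from a phospholipid, had log2 fold changes above 0 for 3 of the 4 genes tested. PLA2G12A, a secreted enzyme, had 17.11, 22.11 and 19.04 CPM in control samples and 29.98, 22.13 and 26.63 CPM in CLs-treated samples. CLs-2 and Control-2 were nearly level, so the separation of the groups rested on a margin far under the spread of the samples. For PLA2G12A the log2 fold change was 0.44 (SE 0.17, adjusted p = 0.756 by edgeR), and it was 0.33 without CLs-1. A related pseudogene, PLA2G12AP1, had 27 to 47 counts per sample, and reads shared with it could move the value. PLA2G4A, which releases arachidonic acid, and PLA2G6, a calcium-independent enzyme, had log2 fold changes of 0.21 (SE 0.21) and 0.45 (SE 0.33) with overlapping groups. PLA2G15, a lysosomal enzyme, had a value of -0.17.

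PLA2G3, a secreted phospholipase A2, had 9, 10 and 6 counts in the control samples and 0, 1 and 2 counts in the CLs-treated samples. The groups did not overlap, but the level was too low for the test. With the filter on low counts removed, the log2 fold change was -2.99 with an adjusted p of 0.105 by edgeR. The phospholipase D family, of which PLD1 and PLD2 release phosphatidic acid, lay between -0.12 for PLD1 and 0.10 for PLD3, all with overlapping groups. Of the patatin-like phospholipases, PNPLA8, a calcium-independent phospholipase of mitochondria and peroxisomes, had 11.4, 16.1 and 12.4 CPM in control samples and 24.5, 17.1 and 17.5 CPM in CLs-treated samples. All CLs-treated samples were higher, with CLs-1 well above the others. The log2 fold change of 0.57 (SE 0.21, adjusted p = 0.654 by edgeR) was 0.38 without CLs-1. PNPLA6, which breaks down phosphatidylcholine and its lysolipid, had 136, 179 and 196 CPM in control samples and 130, 136 and 145 CPM in CLs-treated samples, with a log2 fold change of -0.31 (SE 0.15).

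In the Kennedy pathway PCYT2, of the ethanolamine branch, had separate groups, while the 6 other enzymes overlapped. PCYT2, which makes CDP-ethanolamine and paces phosphatidylethanolamine synthesis, had 62.2, 70.3 and 57.2 CPM in control samples and 37.1, 49.8 and 42.3 CPM in CLs-treated samples. Every CLs-treated sample was below every control sample, and CLs-1 was the lowest. The log2 fold change was -0.55 (SE 0.15), or a fold of 0.681, with an adjusted p of 0.327 by edgeR and 0.112 by DESeq2, and it was -0.46 without CLs-1. The neighbouring gene NPB overlaps 33.2% of the exon length of PCYT2 on the opposite strand and had 0 counts in all 6 samples. PCYT1A, the matching enzyme for choline, had 73.9, 71.5 and 56.6 CPM in control samples and 80.2, 63.2 and 65.3 CPM in CLs-treated samples. The groups overlapped, with a log2 fold change of 0.05 (SE 0.15). The choline kinases CHKA and CHKB had values of -0.12 and -0.10, and the final enzymes CEPT1 and CHPT1 had values of 0.10 and 0.17. ETNK1, which phosphorylates ethanolamine, had 19.7, 20.6 and 18.6 CPM in control samples and 26.3, 14.8 and 15.6 CPM in CLs-treated samples. CLs-1 was above and the other two below all control samples of ETNK1, and its log2 fold change was -0.05 with CLs-1 and -0.37 without it (adjusted p = 0.528 by edgeR).

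Phosphatidylethanolamine also arises in mitochondria from phosphatidylserine. PISD, the decarboxylase of that step, had 73.2, 75.1 and 77.3 CPM in control samples and 53.7, 62.7 and 62.1 CPM in CLs-treated samples. The control samples were close together and all CLs-treated samples lay below them. For PISD the log2 fold change was -0.34 (SE 0.13, adjusted p = 0.697 by edgeR), and it was -0.27 without CLs-1. PTDSS2, which makes phosphatidylserine from phosphatidylethanolamine, had 45.1, 45.7 and 46.7 CPM in control samples and 40.1, 41.1 and 42.6 CPM in CLs-treated samples. The groups were apart by a narrow margin, with a log2 fold change of -0.15 (SE 0.13, adjusted p = 0.999 by edgeR). PTDSS1 had a value of 0.05 with overlapping groups. PEMT had 58.8, 56.7 and 54.9 CPM in control samples and 37.0, 66.3 and 66.7 CPM in CLs-treated samples. Its log2 fold change near 0 hid opposite directions, since CLs-1 was the lowest and CLs-2 and CLs-3 were the highest of all samples.

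**Figure D4:**
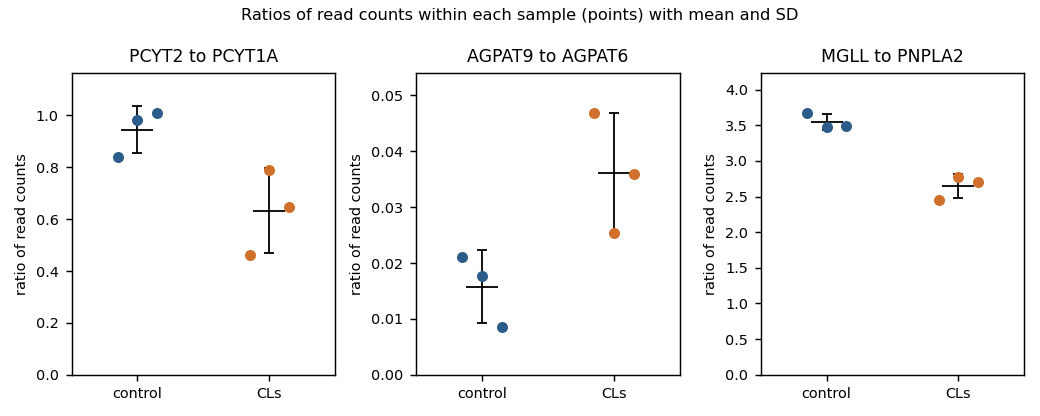
Ratio of the read counts of 2 genes within each sample (y axis from 0) for PCYT2 to PCYT1A, AGPAT9 to AGPAT6 and MGLL to PNPLA2; points are samples and black bars the group mean and SD (n = 3). The groups do not overlap in any of the 3 ratios.

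Ratios of read counts within a sample, which do not depend on scaling between samples, were taken for 3 pairs chosen after their values had been seen, so they are given without a test. The ratio of PCYT2 to PCYT1A was 0.945 ± 0.0908 (SD, n = 3) in control and 0.633 ± 0.163 (SD, n = 3) in CLs-treated samples. The ratio of AGPAT9 to AGPAT6 was 0.0157 ± 0.00652 (SD, n = 3) and 0.0361 ± 0.0108 (SD, n = 3). The ratio of MGLL to PNPLA2 was 3.55 ± 0.115 (SD, n = 3) and 2.65 ± 0.168 (SD, n = 3). For the last pair the spread was narrow, and MGLL and PNPLA2 were both highest in Control-3.

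Acyltransferases that put a chain back on a lysophospholipid were split, with 3 log2 fold changes above 0 and 3 below, which became 1 above and 5 below without CLs-1. MBOAT1, which prefers lysophosphatidylethanolamine and lysophosphatidylserine, had 30.7, 28.7 and 33.0 CPM in control samples and 27.1, 18.2 and 23.7 CPM in CLs-treated samples. The groups did not overlap, and CLs-2 was the lowest. For MBOAT1 the log2 fold change was -0.42 (SE 0.17, adjusted p = 0.775 by edgeR), and it was -0.56 without CLs-1 and -0.28 without CLs-2. LPCAT1, which remakes phosphatidylcholine, had 140, 130 and 138 CPM in control samples and 127, 107 and 119 CPM in CLs-treated samples. CLs-1 lay close to Control-2, and the log2 fold change was -0.21 (SE 0.13, adjusted p = 0.939 by edgeR). LPCAT2, LPCAT4, MBOAT2 and LPGAT1 had overlapping groups, with values between -0.24 and 0.15. Of the enzymes on the way to cardiolipin, CDS2, which makes CDP-diacylglycerol, had 40.7, 39.2 and 52.3 CPM in control samples and 37.4, 33.7 and 37.4 CPM in CLs-treated samples. These groups were apart, with a log2 fold change of -0.28 (SE 0.15, adjusted p = 0.910 by edgeR) that was -0.14 without Control-3. CDS1, with 4 to 12 counts per sample, PGS1 and CRLS1, the cardiolipin synthase, had overlapping groups, with log2 fold changes of 0.34 (SE 0.44), 0.00 and 0.28 (SE 0.18).

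**Figure D5:**
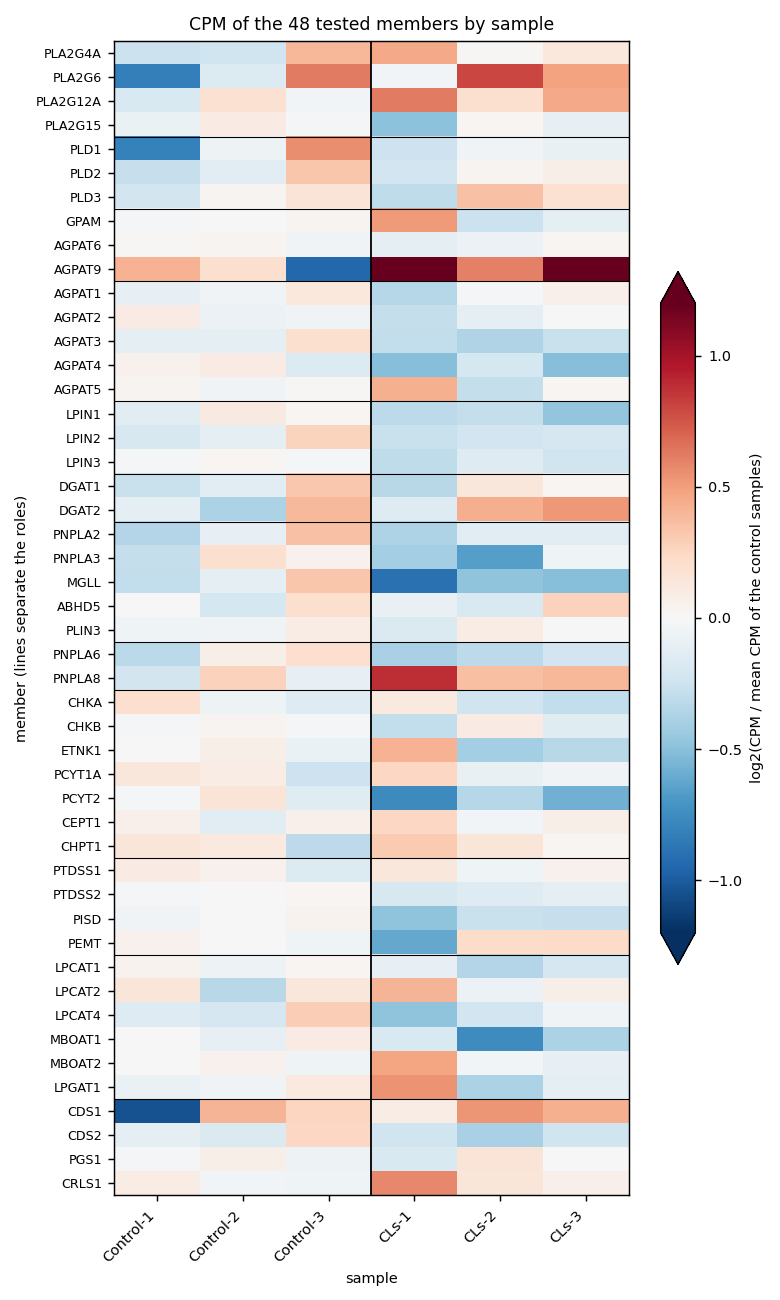
Log2 of each sample's CPM over the mean CPM of the control samples (colour) for the 48 genes tested (y axis, lines separate the roles) in the 6 samples (x axis). The column of CLs-1 holds the lowest value of 20 genes and the highest of 15.

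CLs-1 was the most extreme sample for these genes. It was the lowest of the 6 samples for 20 of the 48 genes (41.7%, beside 23.0% of all genes tested) and the highest for 15 (31.3%, beside 25.7%). Control-3 was the highest for 14 (29.2%, beside 21.4% of all genes tested). Without CLs-1, the log2 fold change changed sign for 11 genes: PLD2, GPAM, AGPAT1, AGPAT5, DGAT1, PLIN3, PCYT1A, PEMT, MBOAT2, LPGAT1 and PGS1. At an unadjusted p under 0.05, 8 of the 48 genes were then found by edgeR, beside 9.02% of all genes tested without CLs-1. The 8 genes were AGPAT3, LPIN1, MGLL, ETNK1, PCYT2, PISD, LPCAT1 and MBOAT1. AGPAT9, PLA2G12A and PNPLA8, the genes that were higher, were no longer among them.

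A wider list of 92 other genes of glycerophospholipid and triglyceride metabolism gave a flatter picture. Of these, 57 had enough reads to be tested by edgeR and 0 were called (lowest adjusted p = 0.653). At an unadjusted p under 0.05 there were 2 by edgeR and 2 by DESeq2, or 3.51% of those tested by edgeR, beside 5.81% of all genes tested. The groups were apart for 4 genes that were higher in CLs-treated samples (7.02%, beside 5.34% of all genes tested) and 1 that was lower (1.75%, beside 6.18%). Both genes with an unadjusted p under 0.05 encode lipid phosphate phosphatases, which act on phosphatidic acid and related lipids. PPAP2B (PLPP3) had 19.4, 15.1 and 18.7 CPM in control samples and 12.9, 11.1 and 13.6 CPM in CLs-treated samples, with a log2 fold change of -0.50 (SE 0.18, adjusted p = 0.653 by edgeR). PPAPDC1B (PLPP5) had 17.5, 17.5 and 18.1 CPM in control samples and 22.02, 21.87 and 25.06 CPM in CLs-treated samples, with a log2 fold change of 0.37 (SE 0.15, adjusted p = 0.761 by edgeR). The 18 tested of 31 further phospholipases and lysophospholipases had a median of 0.00, the 7 tested of 9 diacylglycerol kinases 0.04 and the 7 tested of 10 further lipases -0.04. Of 12 lipid droplet proteins 3 were tested. PLIN2, a droplet coat protein named here after its values were seen, had 1, 0 and 7 counts in control samples and 91, 1 and 3 counts in CLs-treated samples. G0S2, an inhibitor of PNPLA2 named for the same reason, had 31 counts in CLs-1 and no read in any other sample.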

How the data were processed

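RNA-seq of 3 control and 3 CLs-treated samples was analysed from the deposited counts, the whole number of reads that the authors counted on each gene symbol, without normalization. The authors prepared single-end libraries with an Ion Total RNA-Seq kit, mapped reads with MapSplice and, per the submitters' processing notes, used HTSeq 0.6.1 and the build hg19 (GRCh37). The strand setting and the handling of multi-mapped reads are not given in the sources used here, and exons of other genes overlap those of 24 of the 50 genes. The authors' own comparisons used RPKM and EBSeq, which are not in the counts. With them the paper lists PLA2G3 as lower after CLs and AGPAT9 among its changed genes. It also chose PLA2G3 for measurement by qRT-PCR, and reports qRT-PCR levels almost comparable to its RNA-seq for the genes chosen.

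The 50 genes and the wider list were chosen with earlier results of these data known. Counts were fitted over all genes with edgeR 4.0.16 in R 4.3.3 (filterByExpr, TMM, quasi-likelihood F test on condition, Benjamini-Hochberg adjustment), and a gene was called at an adjusted p under 0.05 and a fold above 1.5 or below 0.67. Standard errors were derived from the F statistic. Genes are given by sample if called, at an unadjusted p under 0.05, not overlapping between groups, or too low to test. Exon lengths came from GENCODE release 29. In simulated data for this comparison 200 genes were changed at each fold, in a fit of 14855, 14833 and 14842 genes for folds of 1.5, 2 and 4. Of the changed genes that were tested, 0.508% were recovered at a fold of 1.5, 68.9% at 2 and 99% at 4. The simulated fold of 1.5 lies at the calling limit itself. Alternatives were DESeq2 1.42.0, other scaling factors, no filter, no fold criterion, a replicate block, and fits that each omit 1 sample. Floors of 3 counts cover counting error only.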

Additional observations from a re-analysis of the deposited data

How the results depend on the processing

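The 15 genes whose groups did not overlap passed the criteria in 0 of the 165 values computed for them under the alternatives. Their direction is fixed by how they were chosen when a sample is left out, so it says nothing about stability. The lowest adjusted p among them was 0.0659, for MGLL by edgeR without the filter on low counts. Among all genes the main comparison called 2 higher and 11 lower. These counts were 58 and 113 without the filter, 15 and 90 with DESeq2, and 12 and 56 when a replicate block was added; library totals in place of TMM gave 6 lower, and the cause was not tested. Leaving out each sample in turn gave 1 to 3 higher and 2 to 6 lower. Without the filter 2 genes of the wider list were called, PLIN2 and G0S2, whose reads lay nearly all in CLs-1. Of the 50 genes, 5 to 8 had an unadjusted p under 0.05 with a sample left out, beside 9 with all samples. The share of all genes tested was 5.81% with all samples and 9.02% without CLs-1. No such share is given for the other fits, so their counts cannot be set against all genes. The count was 5 without Control-2, where LPIN1, PISD, MBOAT1 and AGPAT3 were lost. It was also 5 without CLs-3, where PLA2G12A, LPIN1, MBOAT1 and AGPAT3 were lost.

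The replicate numbers were not taken as pairing. Deviations from the group means correlated at 0.111, 0.099 and 0.305 for the samples numbered 1, 2 and 3, and each sample correlated best with its own number, a hint from the data and not from the design. With the replicate block 0 of the 50 genes were called (lowest adjusted p = 0.114 by edgeR). In that fit 10 had an unadjusted p under 0.05, with no share of all genes to set beside them. Counts were low for PLA2G3, LIPE, CDS1 and AGPAT9, and the part of depth in this was not tested. A fold of 1.5 was rarely recovered in simulated data with 3 samples a group. A call there also required an estimated fold above 1.5 or below 0.67. Recovery without that criterion was not simulated, so its part in the low recovery was not tested. In the measured data the calls among all genes were 2 higher and 11 lower with or without it.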
